A study of Homo sapiens with 12 samples.

Results

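Expression of 10 genes of the contractile actin apparatus was followed across 4 groups of RCC4 cells: ACTA2, ACTG2, CNN1, MYL9, TAGLN, FILIP1L, TPM1, TPM2, CALD1 and VCL. The genes were listed by name as smooth muscle type contractile genes and targets of serum response factor, and every probe set annotated to each was taken, which gave 23 of the 22215 probe sets tested and 10 of 11963 genes. RCC4 is a cell line from a human clear cell carcinoma of the kidney, a tumour type in which VHL is usually lost, and this line has no functional VHL. The cells received a non-targeting siRNA (siNT) or an siRNA against WWTR1 (siTAZ) for 2 days, followed by 7 hours of DMSO, called vehicle here, or 1 µM erastin. There were thus siNT cells in vehicle, siNT cells under erastin, siTAZ cells in vehicle and siTAZ cells under erastin, with 3 arrays in each group. WWTR1 encodes TAZ, a transcriptional coactivator of the Hippo pathway, and erastin blocks the cystine/glutamate antiporter. The labels name 1 cell line and no independent siRNA sequences, so an effect of silencing and an effect of the siRNA reagent cannot be told apart. The submitters call the samples biological triplicates, and p-values measure the spread between these arrays.

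Serum response factor (SRF) is a transcription factor that binds a short element, the CArG box, in the promoters of muscle and cytoskeletal genes. Its myocardin-related cofactors, MRTFA and MRTFB, are held in the cytoplasm by monomeric actin and enter the nucleus when actin polymerises, so that actin assembly feeds into transcription. In smooth muscle and in myofibroblasts this pathway drives actin isoforms, calponin, transgelin, tropomyosins, caldesmon and vinculin. TAZ and its relative YAP bind DNA through TEAD factors, and TEAD and SRF share a number of cytoskeletal target genes.

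The promoters of the genes were read for both kinds of element, because the same list contains genes that were called for siTAZ and genes that were not. RefSeq sequences of the GRCh38.p14 assembly held 14 promoter windows for 8 of the 10 genes, and the 250 bases before each start were searched on both strands. A CArG box was present in 2 of the 14 windows, those of ACTG2 and FILIP1L, against 1.16% of 35116 promoter windows of the same length. A near match, with G or C at 1 of the 6 inner letters, was present in another 2 windows, those of ACTA2 and CALD1, against 5.96%. The TEAD motif GGAATG or its reverse complement, which can share letters with the end of a CArG box, was found in 5 windows of 4 genes (ACTA2, CALD1, FILIP1L and VCL), against 11.9%. These matches describe the letters of the windows and say nothing of binding in RCC4 cells. The stretches around the boxes of 3 genes are given 5′ to 3′ on the strand of the gene, with the CArG and near-CArG boxes in capitals.
ACTA2, chr10:88952805-88952924, minus strand, bases 151 to 32 before the start: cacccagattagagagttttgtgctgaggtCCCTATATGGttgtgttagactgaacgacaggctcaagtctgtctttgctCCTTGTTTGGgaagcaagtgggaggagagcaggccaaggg
ACTG2, chr2:73892868-73892974, plus strand, bases 140 to 34 before the start: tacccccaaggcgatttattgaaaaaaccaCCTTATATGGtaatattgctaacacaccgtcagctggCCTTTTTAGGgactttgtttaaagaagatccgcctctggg
FILIP1L, chr3:99876194-99876263, minus strand, bases 90 to 21 before the start: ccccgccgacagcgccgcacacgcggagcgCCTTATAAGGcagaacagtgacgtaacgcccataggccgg
The ACTA2 stretch carries near matches, and the ACTG2 and FILIP1L stretches carry full matches, 2 in ACTG2 and 1 in FILIP1L.

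The silenced gene followed the labels. WWTR1 (202133_at) averaged 12.28 ± 0.06 (SD, n = 6) in log2 signal over the siNT arrays and 9.25 ± 0.14 (SD, n = 6) over the siTAZ arrays, or 12.2% of the signal left (two-sided exact permutation test, p = 0.00216, the smallest that 6 against 6 arrays allow). With 3 arrays per group, that number limits how precise a value can be. Array medians lay between 6.48 and 6.54, and within groups the correlation between arrays was 0.996 to 0.999. Markers of the labelled cell type were read, and the identity of the line was not tested. The 10 measured of 12 markers of clear cell carcinoma lines (NDUFA4L2 and CA9 were not analysed) had a median log2 signal of 10.5. The 15 measured leukocyte and endothelial markers lay between 3.29 and 5.94. This last range was used as a guide to background, and 43.5% of all probe sets fell at or under its upper end. Of the 23 probe sets, 8 did so: ACTA2 215787_at, ACTG2 202274_at, CALD1 205525_at and 215199_at, TAGLN 205547_s_at, both TPM2 probe sets and VCL 200930_s_at. The labels describe no smooth muscle cells, and of 9 measured smooth muscle lineage markers 7 lay in the background range, among them MYH11, the smooth muscle myosin heavy chain, at 5.18. SMTN, which encodes smoothelin, lay above it at 8.20. CNN1, at 6.06 over all 12 arrays, lay above it only through the siTAZ arrays. Its group means were 6.50 and 6.34 in siTAZ cells (vehicle and erastin) and 5.70 in both siNT groups. The summed level of that marker list was 9.18 to 9.34 (log2) on siNT vehicle, 9.02 to 9.18 on siNT erastin, 9.28 to 9.44 on siTAZ vehicle and 9.19 to 9.22 on siTAZ erastin arrays, and CNN1, itself one of the 10 genes, was the only marker of the list called by its brightest probe set. A dimmer SMTN probe set, 207390_s_at, rose by 0.26 under erastin (adjusted p = 0.0214). Of the 10 pericyte and fibroblast markers and 9 skeletal and cardiac muscle markers measured, 0 were called in either comparison of siTAZ with siNT. The markers of carcinoma lines themselves moved with siTAZ: 3 of 10 rose and 3 fell in vehicle, and 3 rose and 4 fell under erastin, where 26.3% and 25.9% of all genes were called by their brightest probe set. Among them KRT18, an epithelial keratin, changed by −1.06 and −1.01 and the cadherin CDH6 by 0.77 and 0.68, and the part of these changes in the results below was not tested.

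Silencing of WWTR1 was accompanied by a called rise of a small group of the contractile genes and not of the whole list. FILIP1L, ACTA2, CNN1 and MYL9 rose both in vehicle and under erastin, by 1.56-fold to 2.67-fold, and on each of these 4 probe sets every siTAZ array lay above every siNT array. The share of all probe sets with such a separation was not counted. These 4 were named because they were called, so their separation adds no support to the calls. In vehicle the siTAZ and siNT arrays also separated without a call, as on TPM1 206117_at (adjusted p = 0.384) and CALD1 214880_x_at (adjusted p = 0.161), both lower in siTAZ cells. ACTG2, TAGLN and TPM2 were not called in either comparison, but all their probe sets lie in the background range, where a change could go unseen. VCL was not called by either of its probe sets, and TPM1 was called on 1 of its 4 probe sets in vehicle. CALD1, whose probe sets moved in both directions, had 4 of 8 called lower under erastin. A probe set was called at an adjusted p under 0.05 over all 22215 probe sets of a comparison. In vehicle 6 of the 23 probe sets rose and 0 fell (up to 2 fell, both of CALD1, in the alternatives run), against 11.6% of all probe sets that rose and 10.9% that fell. Under erastin 4 rose and 4 fell, against 12.1% and 10.7%. Taking the brightest probe set of each gene, 4 of 10 genes rose and 0 fell in vehicle (all genes: 13.7% and 12.7%), and 4 rose and 1 fell under erastin (all genes: 14.3% and 11.5%). The 10 genes were chosen with earlier results of these data known, so an excess over the share of all genes is no independent support. The median log2 change of the 23 probe sets was −0.03 in vehicle and 0.03 under erastin, beside −0.01 and 0.00 over all probe sets. The median over the 10 genes was 0.14 and 0.07, beside −0.01 and 0.01 over all genes. The 8 CALD1 probe sets share one gene, so counts of probe sets are not counts of independent members. In these bulk samples a change in RNA per cell and a change in the share of cells that carry the RNA cannot be told apart.

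**Figure D1:**
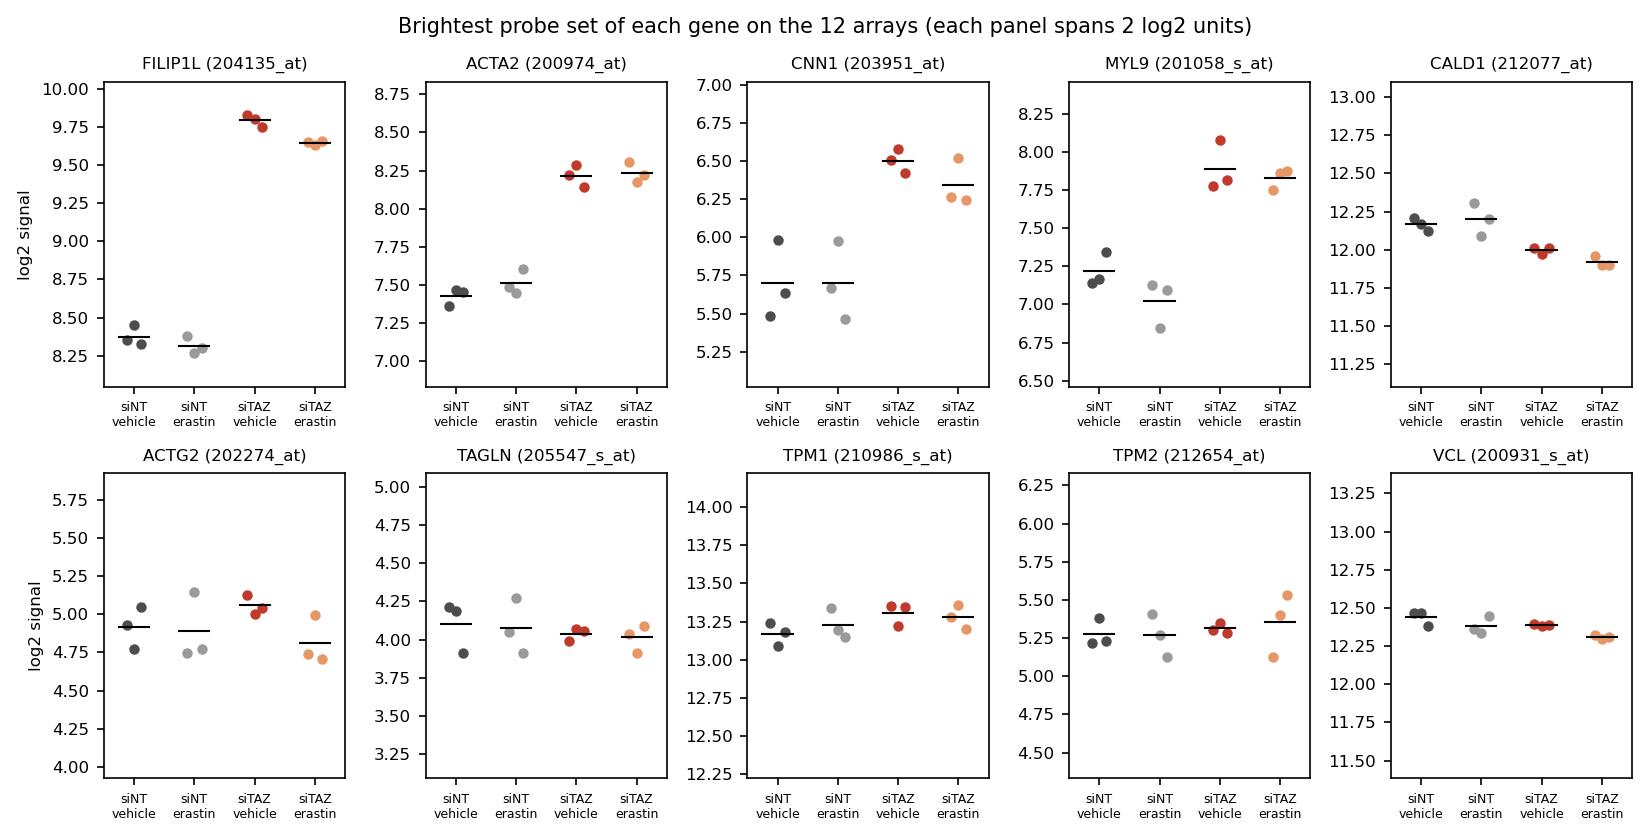
Log2 signal of the brightest probe set of each of the 10 genes on the 12 arrays, by group; each point is 1 array, each line a group mean, and every panel spans 2 log2 units so that shifts can be compared by eye. The siTAZ points of FILIP1L, ACTA2, CNN1 and MYL9 lie above all siNT points, whereas those of ACTG2, TAGLN, TPM1, TPM2 and VCL stay within a narrow band.

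ACTA2 encodes smooth muscle alpha-actin, the classical marker of smooth muscle cells and myofibroblasts. Its main probe set, 200974_at, gave log2 signals of 7.36, 7.47 and 7.45 on the siNT vehicle arrays and 7.49, 7.45 and 7.61 on the siNT erastin arrays. On the siTAZ arrays it gave 8.22, 8.28 and 8.15 in vehicle and 8.31, 8.18 and 8.22 under erastin. The lowest siTAZ array was thus above the highest siNT array in both media, and the 2 siTAZ groups overlapped. The log2 change was 0.79 ± 0.07 (SE) or 1.73-fold in vehicle (adjusted p = 3.41e-06) and 0.72 ± 0.07 or 1.65-fold under erastin (adjusted p = 7.36e-06). The other ACTA2 probe set, 215787_at, had a mean of 3.23, in the range of the markers of absent cell types, and gave −0.06 (adjusted p = 0.655) and 0.05 (adjusted p = 0.739). Averaging both probe sets lowered the ACTA2 change to 0.36 and 0.38, both still called.

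ACTG2 encodes smooth muscle gamma-actin, the enteric isoform. Its single probe set read 4.93, 4.77 and 5.05 on siNT vehicle, 4.74, 5.14 and 4.78 on siNT erastin, 5.13, 5.00 and 5.04 on siTAZ vehicle, and 4.74, 4.99 and 4.71 on siTAZ erastin arrays. All 4 groups overlapped, apart from the siTAZ groups, where the erastin arrays lay just below the vehicle arrays. The siTAZ change was 0.14 (95% interval −0.10 to 0.39) in vehicle and −0.08 (−0.32 to 0.17) under erastin. The probe set lies at the level of markers of absent cell types, so a change of the ACTG2 transcript could go unseen here. The 2 smooth muscle actins, one with near matches and one with full matches of the CArG box, therefore gave different readouts, but only the ACTA2 probe set stood above that level.

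MYL9 encodes a regulatory light chain of myosin II, the subunit whose phosphorylation switches on contraction in smooth muscle and in non-muscle cells. Its probe set 201058_s_at read 7.14, 7.17 and 7.34 on siNT vehicle and 7.12, 6.84 and 7.10 on siNT erastin arrays. The siTAZ arrays read 7.78, 8.08 and 7.82 in vehicle and 7.75, 7.86 and 7.87 under erastin. The siTAZ and siNT arrays did not overlap. The change was 0.67 ± 0.10 or 1.59-fold in vehicle (adjusted p = 0.000291) and 0.81 ± 0.10 or 1.75-fold under erastin (adjusted p = 7.71e-05).

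CNN1 encodes calponin 1, an actin-binding protein that restrains actomyosin ATPase in smooth muscle. The siNT arrays read 5.49, 5.98 and 5.63 in vehicle and 5.67, 5.98 and 5.46 under erastin, which places siNT cells at the upper end of the background range. The siTAZ arrays read 6.50, 6.58 and 6.42 in vehicle and 6.27, 6.52 and 6.24 under erastin, all above the highest siNT array. CNN1 rose by 0.80 ± 0.14 or 1.74-fold in vehicle (adjusted p = 0.00125) and by 0.64 ± 0.14 or 1.56-fold under erastin (adjusted p = 0.00565). Since a probe set near background understates a rise, these folds hold for the signal and not for the transcript. The difference between the 3′ and 5′ actin control probe sets, a measure of RNA integrity and of how far labelling ran, was 2.26 ± 0.69 (SD, n = 3) on siNT erastin and 3.25 ± 0.33 (SD, n = 3) on siTAZ erastin arrays, beside 2.68 ± 0.28 and 2.65 ± 0.04 in vehicle. With that difference as a covariate CNN1 changed by 0.38 under erastin (adjusted p = 0.19) and lost its call. The actin difference did not overlap between the erastin groups (highest siNT 2.82, lowest siTAZ 3.01), so there it goes partly together with siTAZ. The same difference for the GAPDH controls did overlap, at 0.22, 0.15 and 0.07 on siNT erastin and 0.17, 0.27 and 0.16 on siTAZ erastin arrays. A part of RNA quality in these changes was not tested.

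TAGLN encodes transgelin, or SM22, a calponin relative that is among the earliest smooth muscle markers and a textbook SRF target. It did not follow CNN1. Its probe set 205547_s_at read 4.21, 4.19 and 3.91 on siNT vehicle, 4.05, 4.27 and 3.91 on siNT erastin, 3.99, 4.07 and 4.05 on siTAZ vehicle, and 4.04, 3.91 and 4.09 on siTAZ erastin arrays. All groups overlapped. The changes of −0.07 (95% interval −0.28 to 0.15) and −0.06 (−0.28 to 0.15) were measured at a mean of 4.06, within the background range, where a change of the transcript could go unseen.

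FILIP1L encodes a filamin-A interacting protein and gave the largest change of the 10 genes in both media. Its probe set 204135_at read 8.35, 8.45 and 8.33 on siNT vehicle and 8.38, 8.27 and 8.30 on siNT erastin arrays. It read 9.83, 9.80 and 9.75 on siTAZ vehicle and 9.65, 9.63 and 9.66 on siTAZ erastin arrays. The siTAZ arrays lay more than 1 log2 unit above every siNT array, and the SD within each group was at most 0.07. FILIP1L rose by 1.42 ± 0.06 or 2.67-fold in vehicle (adjusted p = 1.73e-08) and by 1.33 ± 0.06 or 2.51-fold under erastin (adjusted p = 3.79e-08). In order of level the siTAZ vehicle group came first, then siTAZ erastin, siNT vehicle and siNT erastin. The neighbours within each siRNA did not pass the test.

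Tropomyosins lie along actin filaments and govern the access of myosin and cofilin. TPM1 had 4 probe sets with means from 9.71 to 13.2, well above background. Only 210987_x_at, whose suffix marks probes that also match other sequences, rose in vehicle. It read 13.16, 13.15 and 13.12 on siNT vehicle, 13.17, 13.20 and 13.20 on siNT erastin, 13.33, 13.35 and 13.30 on siTAZ vehicle, and 13.30, 13.24 and 13.31 on siTAZ erastin arrays. The siTAZ arrays were above the siNT arrays in both media, by 0.18 ± 0.05 or 1.13-fold in vehicle (adjusted p = 0.0196) and by 0.10 ± 0.05 under erastin (adjusted p = 0.216). The call in vehicle ended when 1 of 4 arrays was left out, namely siNT vehicle replicates 2 and 3 and siTAZ vehicle replicates 1 and 2 (adjusted p = 0.0507 to 0.073). The remaining TPM1 probe sets gave 0.16, 0.13 and −0.09 in vehicle and 0.03, 0.05 and 0.02 under erastin, with 0 called. TPM2 was in the background range on both probe sets, with means of 4.45 and 5.30. Its changes were 0.13 and 0.04 in vehicle and 0.21 and 0.09 under erastin, and none passed the test.

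**Figure D2:**
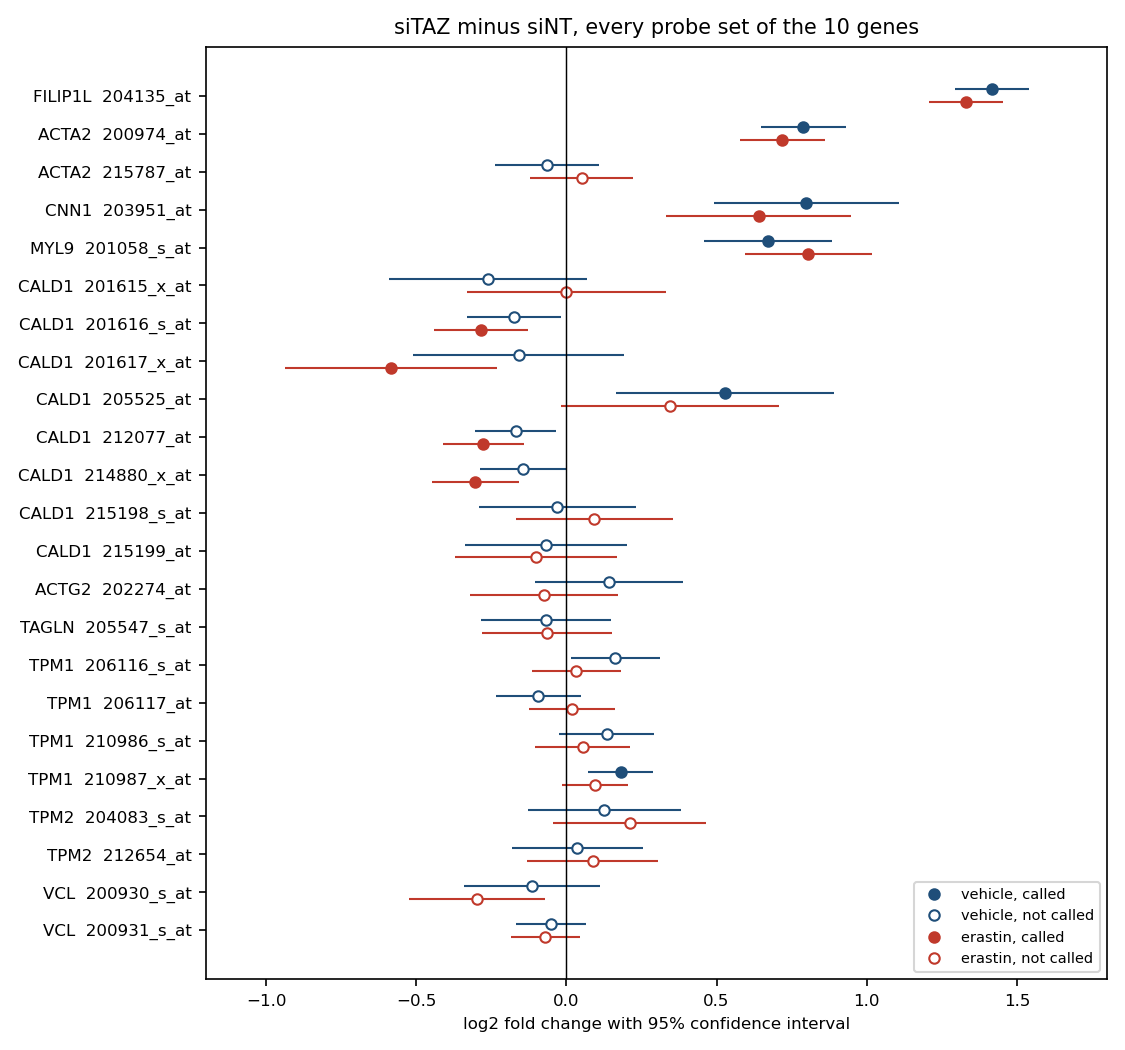
Log2 fold change of siTAZ against siNT for all 23 probe sets, in vehicle (blue) and under erastin (red), with 95% confidence intervals from the limma fit; filled points were called at an adjusted p under 0.05. FILIP1L, ACTA2 200974_at, CNN1 and MYL9 stand to the right in both media, and the CALD1 probe sets spread over both sides of 0.

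Caldesmon, the product of CALD1, is an actin- and calmodulin-binding regulator with a smooth muscle form and a shorter non-muscle form. Its 8 probe sets gave differing values. The brightest, 212077_at, read 12.21, 12.17 and 12.12 on siNT vehicle, 12.31, 12.09 and 12.20 on siNT erastin, 12.01, 11.97 and 12.01 on siTAZ vehicle, and 11.96, 11.90 and 11.90 on siTAZ erastin arrays. The siTAZ arrays were below the siNT arrays in both media. CALD1 fell by 0.28 ± 0.06 on the log2 scale under erastin on this probe set (adjusted p = 0.00606), and the change in vehicle was −0.17 ± 0.06 (adjusted p = 0.0741), which was called in 4 of 22 alternatives, among them without siNT erastin replicate 2 (adjusted p = 0.0488). The difference between these changes was −0.11 (95% interval −0.30 to 0.08, adjusted p = 0.85), so the effect was not shown to depend on erastin. Under erastin 201616_s_at fell by 0.29 (adjusted p = 0.0121), 214880_x_at by 0.30 (adjusted p = 0.0053) and 201617_x_at by 0.58 (adjusted p = 0.0208). In vehicle these 3 gave −0.17, −0.14 and −0.16, with 0 called.

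The other CALD1 probe sets showed another picture. The dim 205525_at was the only one to rise, by 0.53 ± 0.17 in vehicle (adjusted p = 0.0382). It read 5.26, 5.03 and 5.21 on siNT vehicle and 5.49, 5.87 and 5.73 on siTAZ vehicle arrays, which did not overlap but lie within the background range. That call was lost when any of 6 single arrays was left out: each siNT vehicle replicate, siTAZ vehicle replicates 2 and 3, and siTAZ erastin replicate 1 (adjusted p = 0.0515 to 0.137). Under erastin 205525_at gave 0.35 (adjusted p = 0.175), and without siNT erastin replicate 3 it gave 0.52 and was called (adjusted p = 0.0359). The bright 201615_x_at gave −0.26 in vehicle and 0.00 under erastin, 215198_s_at gave −0.03 and 0.09, and the dim 215199_at gave −0.07 and −0.10.

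The CALD1 signals under erastin were set beside the actin 3′ minus 5′ difference, which differed between the groups there, while the GAPDH difference overlapped. On siNT erastin replicate 3, the array with the lowest such difference (1.49), 201617_x_at had its highest signal of 8.78. Without that array the change of 201617_x_at was −0.42 (adjusted p = 0.0746), and with the actin difference as a covariate it was −0.19 (adjusted p = 0.524). It also lost its call without siTAZ erastin replicate 2 or 3 (adjusted p = 0.0781 and 0.0642), and 201616_s_at lost its own without siTAZ erastin replicate 2 (adjusted p = 0.0552). With the covariate 212077_at kept its size, −0.28, at an adjusted p of 0.0566, 214880_x_at gave −0.25 (adjusted p = 0.096), and 201616_s_at kept its call. The dim 215199_at gained a call there, at −0.49 (adjusted p = 0.00406). The mean of all 8 CALD1 probe sets changed by −0.14 under erastin (adjusted p = 0.141).

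**Figure D3:**
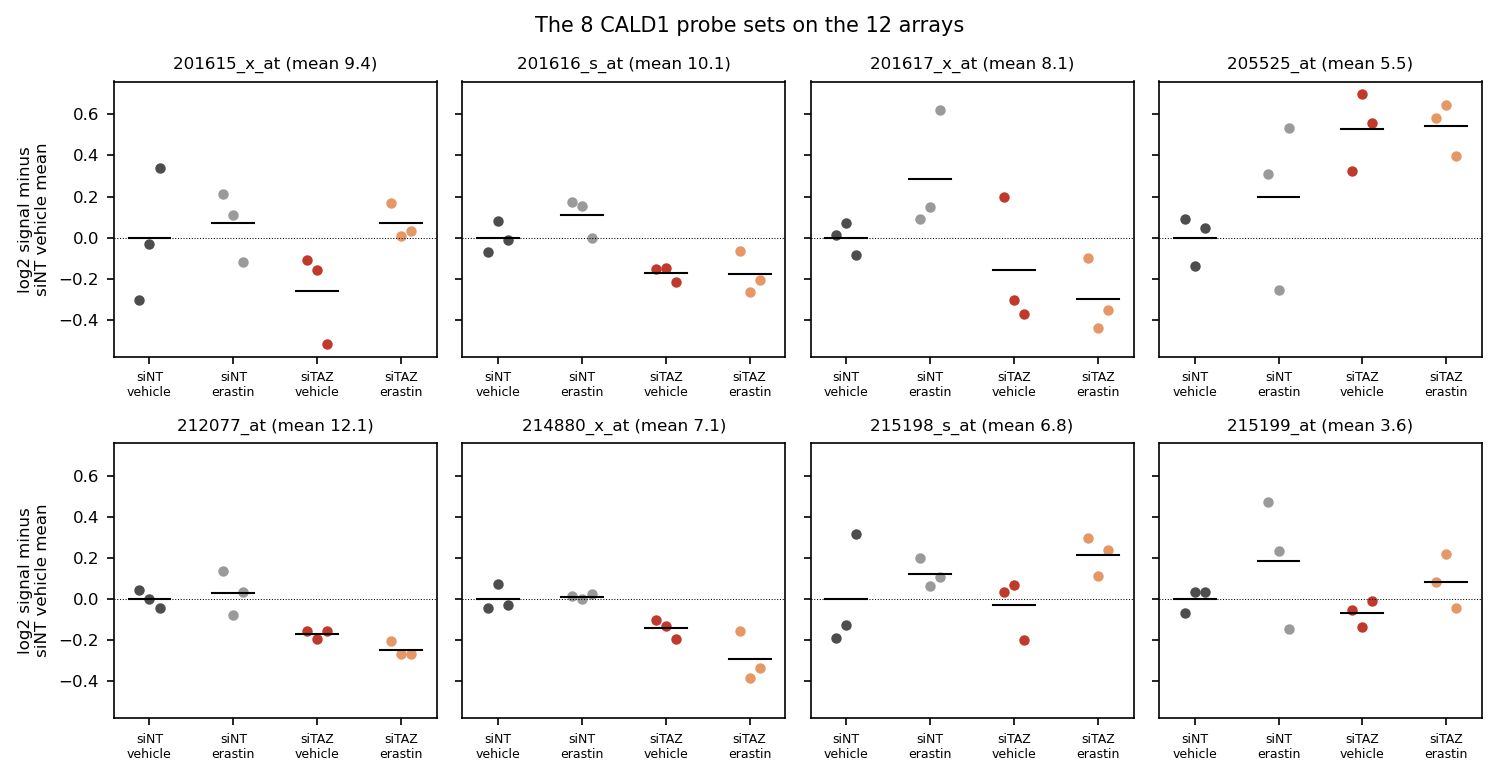
The 8 CALD1 probe sets on the 12 arrays, each as log2 signal minus the mean of its siNT vehicle arrays; points are arrays and lines are group means. The siTAZ arrays of 201616_s_at, 212077_at and 214880_x_at lie below 0, those of 205525_at lie above 0, and 201617_x_at has 1 high siNT erastin array.

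Vinculin, encoded by VCL, links actin filaments to integrin and cadherin adhesions. Its bright probe set 200931_s_at read 12.47, 12.46 and 12.38 on siNT vehicle, 12.36, 12.33 and 12.44 on siNT erastin, 12.39, 12.38 and 12.39 on siTAZ vehicle, and 12.32, 12.30 and 12.31 on siTAZ erastin arrays. The groups overlapped in vehicle, and under erastin the siTAZ arrays were just below the siNT arrays. The changes were −0.05 (95% interval −0.17 to 0.06) and −0.07 (−0.19 to 0.05). The dim 200930_s_at gave −0.11 in vehicle and −0.30 ± 0.10 under erastin (adjusted p = 0.059). That change was called in 6 of 19 alternatives, among them without siNT erastin replicate 3 (−0.37, adjusted p = 0.0308) and without siTAZ vehicle replicate 1 or 3 (adjusted p = 0.0456 and 0.049). The mean of both VCL probe sets gave −0.18 under erastin and was called (adjusted p = 0.0396).

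Erastin for 7 hours left these genes without a called change. In siNT cells 0 of the 23 probe sets were called by limma and 0 had an unadjusted p under 0.05. Over all probe sets 0.216% were called as risen and 0.063% as fallen, and 8.43% had an unadjusted p under 0.05. In siTAZ cells 0 were called and 4 had an unadjusted p under 0.05, and over all probe sets 0.23% were called as risen, 0.0315% as fallen and 8.77% had such a p. The smallest adjusted p was 0.644 in siNT cells, for MYL9 at −0.20 (95% interval −0.41 to 0.02). It was 0.508 in siTAZ cells, for FILIP1L at −0.15 (−0.27 to −0.02). ACTA2 changed by 0.09 (−0.05 to 0.23) in siNT cells and 0.02 (−0.12 to 0.16) in siTAZ cells, and CNN1 by 0.00 (−0.31 to 0.31) and −0.16 (−0.47 to 0.15). The median over the 23 probe sets was 0.04 in siNT and −0.02 in siTAZ cells, beside 0.00 and 0.01 over all probe sets.

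The siTAZ effect was also compared between the media. The difference between the erastin responses was called on 0 of the 23 probe sets, with 0 at an unadjusted p under 0.05, and on 0% of all probe sets in either direction, of which 5.94% had such a p. The median difference was −0.08 for the 23 and 0.01 for all probe sets. For FILIP1L the difference was −0.09 (95% interval −0.26 to 0.09), for ACTA2 −0.07 (−0.27 to 0.13), for CNN1 −0.16 (−0.60 to 0.28) and for MYL9 0.13 (−0.17 to 0.43). The largest was −0.42 (−0.92 to 0.07) on CALD1 201617_x_at, the probe set with the high siNT erastin array.

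**Figure D4:**
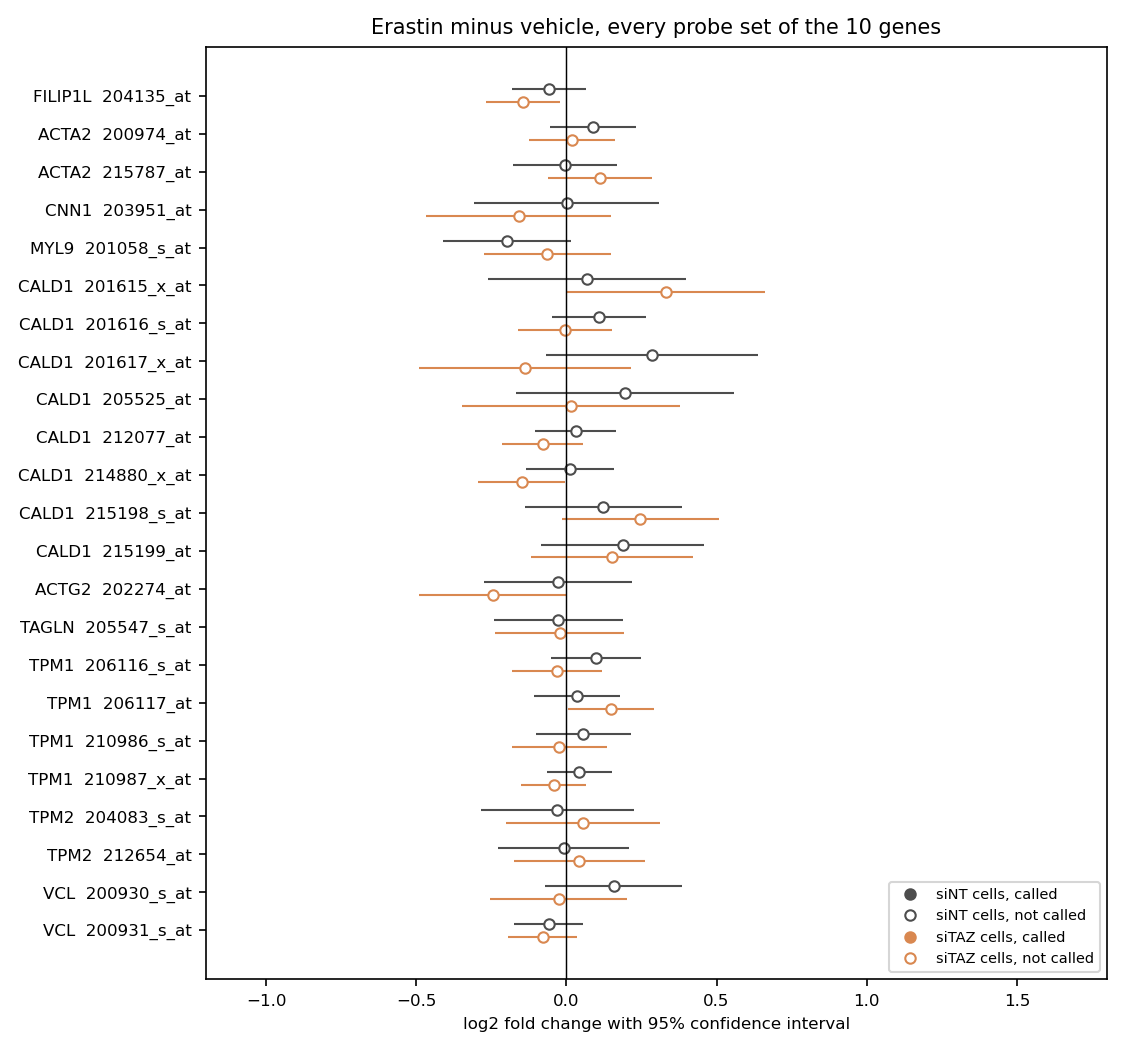
Log2 fold change of erastin against vehicle for all 23 probe sets, in siNT (dark grey) and siTAZ (orange) cells, with 95% confidence intervals; open points were not called. All points are open, and they lie between −0.25 and 0.33.

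The regulators of these genes moved in both directions with siTAZ. A list of SRF, its cofactors and the TEAD factors TEAD1 and TEAD4 had 9 measured genes. Of these, 5 rose and 3 fell in vehicle (median 0.21) and 5 rose and 2 fell under erastin (median 0.19). Over all genes 13.7% rose and 12.7% fell in vehicle, and 14.3% rose and 11.5% fell under erastin. Both TEAD factors were among the rises in both media, FHL2 was among those in vehicle, and the 2 medians are the values of TEAD4. The vehicle count was 3 and 2 without siTAZ vehicle replicate 3, and the erastin count was 3 and 3 with the actin covariate and 3 and 1 with the mean of all probe sets of a gene. That mean also lowered the medians to 0.022 and 0.027. SRF itself fell on its brighter probe set, from 7.65, 7.68 and 7.79 on siNT vehicle to 7.31, 7.39 and 7.22 on siTAZ vehicle arrays, a change of −0.40 ± 0.07 (adjusted p = 0.00104). Under erastin SRF fell by 0.28 ± 0.07 (adjusted p = 0.01), and its second, dim probe set gave 0.02 in both media. MRTFB rose by 0.35 ± 0.07 in vehicle (adjusted p = 0.00265) and by 0.30 ± 0.07 under erastin (adjusted p = 0.00797). MRTFA gave 0.18 ± 0.06 in vehicle (adjusted p = 0.0603) and rose by 0.28 ± 0.06 under erastin (adjusted p = 0.00589). In vehicle its dimmer probe sets 215291_at and 215292_s_at fell by 0.26 and 0.21 from levels in the background range, so the MRTFA probe sets disagreed. Under erastin the mean of all probe sets gave 0.12 for MRTFA (adjusted p = 0.115) and −0.13 for SRF (adjusted p = 0.119). TEAD1, a DNA-binding partner of TAZ, rose by 0.59 ± 0.10 and 0.73 ± 0.10. ELK3, an ETS factor that binds beside SRF, fell by 0.37 ± 0.06 and 0.38 ± 0.06, and its relative ELK4 rose on 1 of 3 probe sets, by 0.23 in vehicle (adjusted p = 0.0277) and 0.30 ± 0.07 under erastin (adjusted p = 0.00585). The vehicle call ended without siNT vehicle replicate 2 or 3 or siTAZ vehicle replicate 3 (adjusted p = 0.0847 to 0.118), and the erastin call ended with the actin covariate (adjusted p = 0.0787).

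Relatives of the contractile genes were read by family. Among 5 measured actin isoforms ACTA2 alone was called in both media, and ACTB, the cytoplasmic beta-actin, changed by 0.00 ± 0.05 and −0.02 ± 0.05. ACTG1 was not analysed here. Among 3 measured tropomyosins only TPM4, a non-muscle form, was called by its brightest probe set, at 0.47 ± 0.07 in vehicle and 0.46 ± 0.07 under erastin, and its second probe set also rose, by 0.63 and 0.58. In the calponin family, 2 of 6 rose in vehicle, CNN1 and TAGLN3, a transgelin best known from neurons, and under erastin these 2 rose and TAGLN2 fell. TAGLN3 rose by 0.53 ± 0.08 and 0.92 ± 0.08, from a level near background in siNT cells. TAGLN2 fell by 0.19 ± 0.05 under erastin (adjusted p = 0.0204). Its call ended when replicate 3 of siNT erastin or replicate 1 or 2 of siTAZ erastin was left out (adjusted p between 0.0541 and 0.0697). It also ended with the actin covariate (−0.15, adjusted p = 0.19) and with only the 2 compared groups in the fit (adjusted p = 0.0832). CNN3 gave −0.23 under erastin (adjusted p = 0.0505) and was called lower in 7 of 22 alternatives. Without siNT vehicle replicate 3 it was a second fall beside TAGLN2 (adjusted p = 0.0404). Without siTAZ erastin replicate 1 it was called (adjusted p = 0.0327) and TAGLN2 was not. Of 8 myosin II chains MYL9 was the one called in vehicle. Under erastin MYH10, non-muscle heavy chain B, rose as well, by 0.39 ± 0.09, and in vehicle it gave 0.26 ± 0.09 (adjusted p = 0.0551). It was called in vehicle in 10 of 22 alternatives, which made 2 of 8 chains, among them without siNT vehicle replicate 2 (0.31), siNT erastin replicate 3 (0.26) or siTAZ vehicle replicate 1 (0.33).

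**Figure D5:**
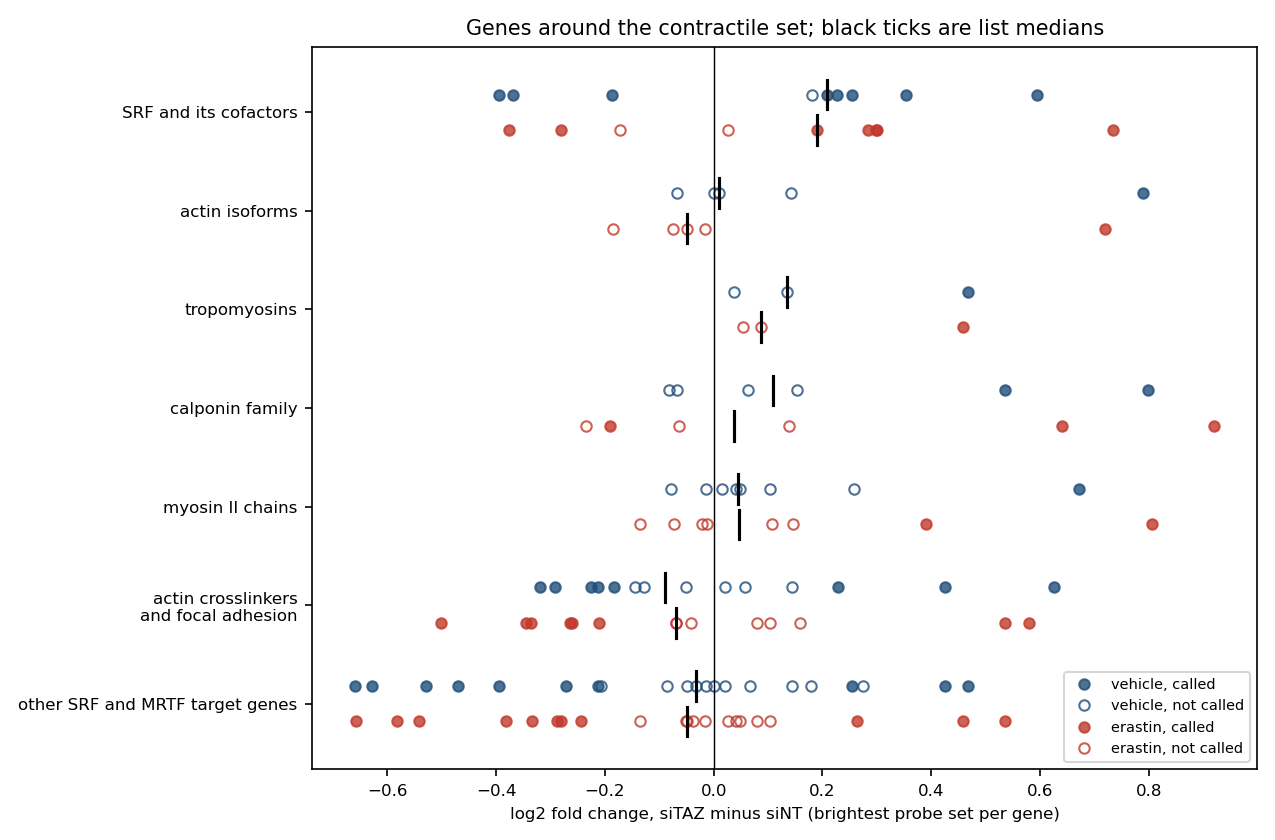
Log2 fold change of siTAZ against siNT for the genes of 7 lists around the contractile genes, by brightest probe set, in vehicle (blue) and under erastin (red); filled points were called and black ticks are list medians. The list medians lie between −0.09 and 0.21, with called genes on both sides of 0 in 3 of the 7 lists in vehicle.

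Crosslinkers and focal adhesion proteins gave 3 rises and 5 falls of 14 in vehicle (3 and 2 with the mean of all probe sets of a gene), and 2 and 6 under erastin. FERMT2, which encodes the integrin activator kindlin-2, rose by 0.63 ± 0.06 and 0.58 ± 0.06. PDLIM7 rose by 0.42 ± 0.07 and 0.54 ± 0.07 on its brightest probe set, with 2 of its 5 probe sets called. Both of these, 214121_x_at and 203369_x_at, carry the suffix for probes that also match other sequences. The nearly as bright 203370_s_at gave 0.09 and 0.06 without a call. PDLIM5 fell by 0.32 ± 0.06 and 0.50 ± 0.06 on its brightest, while the mean of its probe sets gave −0.04 and −0.18 without a call.

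Of 21 other SRF and MRTF target genes 3 rose and 7 fell in vehicle (median −0.03, and 5 and 7 with array weights), and 3 rose and 8 fell under erastin (median −0.05). CSRP1, a LIM protein of smooth muscle, fell by 0.66 ± 0.07 in both media. CCN2 and ANKRD1, targets of both SRF and the TAZ partner TEAD, fell by 0.63 ± 0.10 and 0.47 ± 0.11 in vehicle and by 0.58 ± 0.10 and 0.54 ± 0.11 under erastin. With the actin covariate under erastin they gave −0.41 (adjusted p = 0.0541) and −0.29 (adjusted p = 0.164). FOSL1 fell by 0.53 ± 0.05 and 0.33 ± 0.05. The list of 10 genes and the list of other SRF targets therefore held opposite majorities among their called genes, and whether that difference exceeds chance was not tested. Of the genes of all these lists that were not among the 10, 24 of 50 were called for siTAZ in vehicle and 27 of 50 under erastin. Both are larger shares than the 26.3% and 25.9% of all genes given above. These lists were also chosen with earlier results of these data known, and the excess was not tested. For erastin in siNT cells, erastin in siTAZ cells and the difference between them 0 of 50 were called, beside 0.41%, 0.368% and 0% of all genes. An unadjusted p under 0.05 was reached by 9 of 50, 7 of 50 and 5 of 50. Over all genes the shares were 9.54%, 9.2% and 5.6%, and these small counts were not tested against them.

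For each gene called by its brightest probe set, the 2 genes with the closest profile over the 12 arrays were looked up. Likeness was the root mean square difference of log2 signals after each probe set was centred on its own mean. For ACTA2, whose own root mean square about its mean was 0.38, the closest were KCNJ16, a potassium channel, at 0.06, and ADGRG1, an adhesion receptor, at 0.067. For FILIP1L (0.69) they were AMMECR1 at 0.085 and SEC24A, a coat protein of transport vesicles, at 0.088. For MYL9 (0.39) they were DOK5 at 0.089 and TRAF5, both adaptor proteins, at 0.094. CNN1 (0.40) had no close neighbour, with SLIT3 at 0.139 and the cadherin CDH6 at 0.145. For CALD1 (0.13) they were COTL1, an actin-binding protein, at 0.03 and PIBF1 at 0.039. None of the 10 was among the closest 2 genes of another, and these likenesses rest mainly on the difference between 6 siNT and 6 siTAZ arrays.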

How the data were processed

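Total RNA of 12 RCC4 cultures was measured on Affymetrix 3′ expression arrays. The authors deposited log2 probe set signals. Per the submitters' processing notes the tools were RMA and Affymetrix Expression Console. No version and no genome build is stated (not given in the sources used here). Signals ran from 2.02 to 14.4. The series' design text speaks of values set against the average of the control arrays; the deposited signals show no such centring and were taken as uncentred log2 signals, and 0 columns could not be mapped. Of 22277 probe sets 62 controls were left out. Symbols came from the platform annotation, updated by Entrez identifier through RefSeq (19052 of the 19064 probe sets of a single gene); 1043 probe sets that match more than 1 gene and 2108 with none listed were tested and not named.

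A single limma 3.58.1 fit (R 4.3.3) gave each group a mean (8 residual and 4.12 prior degrees of freedom), 5 comparisons and Benjamini-Hochberg adjusted p-values over all 22215 probe sets; 3 arrays against 3 cannot give an exact permutation p under 0.1. The script was tested on simulated data. Gene lists use the brightest probe set of a gene. A further pathway list is not reported here. Named genes were all members and WWTR1, up to 3 called genes with the largest change per pathway list and comparison, SRF, MRTFA, MRTFB, ACTB and ACTG1, and the 2 most alike genes for each member called by its brightest probe set. Genes mentioned beside a marker list, or as contents of a pathway list, illustrate that list. The members and lists were chosen with earlier results of these data known. Alternatives were other normalisations, probe set rules, variance settings, covariates and leaving out each array.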

Additional observations from a re-analysis of the deposited data

How the results depend on the processing

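The rises of FILIP1L, ACTA2 and MYL9 kept direction and call in both media under all 22 alternatives run, as did CNN1 in vehicle. FILIP1L ranged from 1.39 to 1.45 in vehicle and from 1.30 to 1.36 under erastin, and MYL9 from 0.58 to 0.73 and from 0.72 to 0.86. The number of called probe sets in vehicle was 6 and ranged from 4 to 7 when single arrays were left out. It was 9 with trend and robust eBayes, which added TPM1 206116_s_at and falls of CALD1 201616_s_at and 212077_at (adjusted p = 0.0247, 0.0458 and 0.0114). CALD1 212077_at was also called lower with the 25th percentile filter (adjusted p = 0.0451) and with array weights (adjusted p = 0.0205). Under erastin it was 8 and ranged from 6 to 9, and it was 5 of 10 with the brightest probe set per gene and 5 of 10 with the mean of all probe sets, where the 23 probe sets become 10 values. With the mean the single fall was VCL in place of CALD1. With the actin 3′ minus 5′ difference as a covariate it was 5, with 3 rises and 2 falls. The erastin comparisons and the interaction gave 0 called members under every alternative run. ELK4 under erastin gave −0.063 with the mean of its probe sets, the only reversed direction; its 3 probe sets disagree. Same-numbered arrays showed no uniform pairing, and whether they pair was not settled. Between siTAZ and siNT their deviations correlated at 0.04, 0.17 and −0.05 in vehicle and −0.08, 0.35 and 0.29 under erastin. Of 6 arrays, 2 in vehicle and 4 under erastin correlated best with their own number. Between erastin and vehicle the correlations were −0.13, −0.26 and −0.42 in siNT cells, with 0 of 6 arrays best with their own number. In siTAZ cells they were 0.00, −0.18 and −0.11, also with 0 of 6. With the replicate block 5 and 9 probe sets were called; CALD1 205525_at in vehicle lost its call (adjusted p = 0.0587), and VCL 200930_s_at under erastin gained one (adjusted p = 0.0278), as it did after a second quantile normalisation (adjusted p = 0.0312) and with array weights (adjusted p = 0.0413). Over all probe sets, calls moved from 5018 (22.6%) to 6491 (29.2%) with array weights in vehicle and from 5064 (22.8%) to 5913 (26.6%) under erastin. With the mean of probe sets 3214 and 3142 of 11963 genes were called (26.9% and 26.3%). Calls moved from 62 to between 10 and 222 for erastin in siNT cells, from 58 to between 35 and 160 in siTAZ cells, and from 0 to at most 10 for the interaction. Signals in the background range limit what can be said of ACTG2, TAGLN and TPM2. They also limit what can be said of the size of the CNN1 rise, since the siNT group means of CNN1 lay in that range.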
